A study of Mus musculus with 17 samples.

Results

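The lysosome gene group described here comprised 46 genes, chosen by name for their place in the organelle, of 53278 gene symbols in the deposited expression table. It held 7 cysteine proteases, 3 aspartic or serine proteases, 10 glycosidases, 5 sulfatases, 4 lipid hydrolases, 4 lumenal activators or carriers, 7 membrane proteins, 5 subunits of the V-ATPase and Tfeb, a transcription regulator. Sorted EpCAM+ CD45- Ter119- cells of the small intestine were profiled by RNA sequencing in 17 libraries from Igha -/+ mice of strain C57BL/6, which were nursed either by a C57BL/6 dam, called the B6 dam below, or by an IgA -/- dam, called the IgA-null dam and labelled as giving no maternal IgA. Each dam was sampled at day of life 14, 24 and 42, with 3 libraries a group except 2 for the B6 dam at day 24. All pups, in every group, carried a single intact Igha allele, and the labels did not say which pups shared a dam, a litter or a sex, so that p-values measured only the spread between these libraries. The sample descriptions began with the letter F for every library of the IgA-null dam and M for every library of the B6 dam; what the letters stand for is not stated, and they and the dam cannot be told apart.

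Lysosomes are acidified by the V-ATPase, a proton pump, and hold the proteases, glycosidases, sulfatases and lipases that break down what the cell takes in or recycles. In suckling rodents the enterocytes of the distal small intestine carry a large lysosomal vacuole that takes up and digests milk protein, and these cells are replaced by adult-type enterocytes around weaning. TFEB and its relatives switch on many lysosomal genes by binding an E-box in their promoters.

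Levels are given as scaled TPM, the deposited TPM, a read count per length of transcript set to a fixed library total, divided by a size factor for each library, which makes them comparable between genes per unit of length. Fold changes are differences of log2(scaled TPM + 1), a scale that understates the change of genes near 0, and a gene is said to have risen or fallen where its Benjamini-Hochberg adjusted p, over 15066 genes tested with limma, was under 0.05. All 46 members passed the filter on low values. Libraries held 8926993 to 18897602 reads recovered from the table, and the members between 13 and 7253 reads in a library. The epithelial label held in every library, with Epcam from 245 to 552 scaled TPM and the leukocyte gene Ptprc at no more than 0.737. In cells sorted as Ter119-, IgA-null dam day 24 replicate 2 had 5 erythroid markers at a summed 64.9 scaled TPM, against 0 to 2.80 in every other library. The 2 libraries of the B6 dam at day 24 differed from each other. Krt20 of the mature enterocyte was at 132 in replicate 1 and 710 in replicate 2, below and above the 279 to 552 of the IgA-null libraries of that day. Cubn, an endocytic receptor, was at 0.650 and 12.8, around the 4.38 to 7.41 of those IgA-null libraries. B6 dam day 42 replicate 1 differed from its group, with Krt20 at 348 against 103 and 170, and Cubn at 13.8 against 0.569 and 0.731. Dates written in the sample descriptions differed between dams at day 14 and at day 24, so date and dam cannot be told apart there, and were the same at day 42; what the dates mark is not stated.

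At day 14, 16 of the 46 members were lower in pups of the IgA-null dam than in pups of the B6 dam and none was higher, while 1.14% of all genes tested fell. The fallen members were 4 of the 7 cysteine proteases, all 3 aspartic or serine proteases, 6 of the 10 glycosidases, 1 of the 5 sulfatases and 2 of the 4 lumenal proteins. No membrane protein, lipid hydrolase or V-ATPase subunit passed the test. The fold change was below 0 for 43 of 46 members, and its median was -0.59 against -0.01 over all genes tested. In 27 of 46 members every IgA-null library lay below every B6 library, an arrangement seen in 15.1% of all genes.

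**Figure D1:**
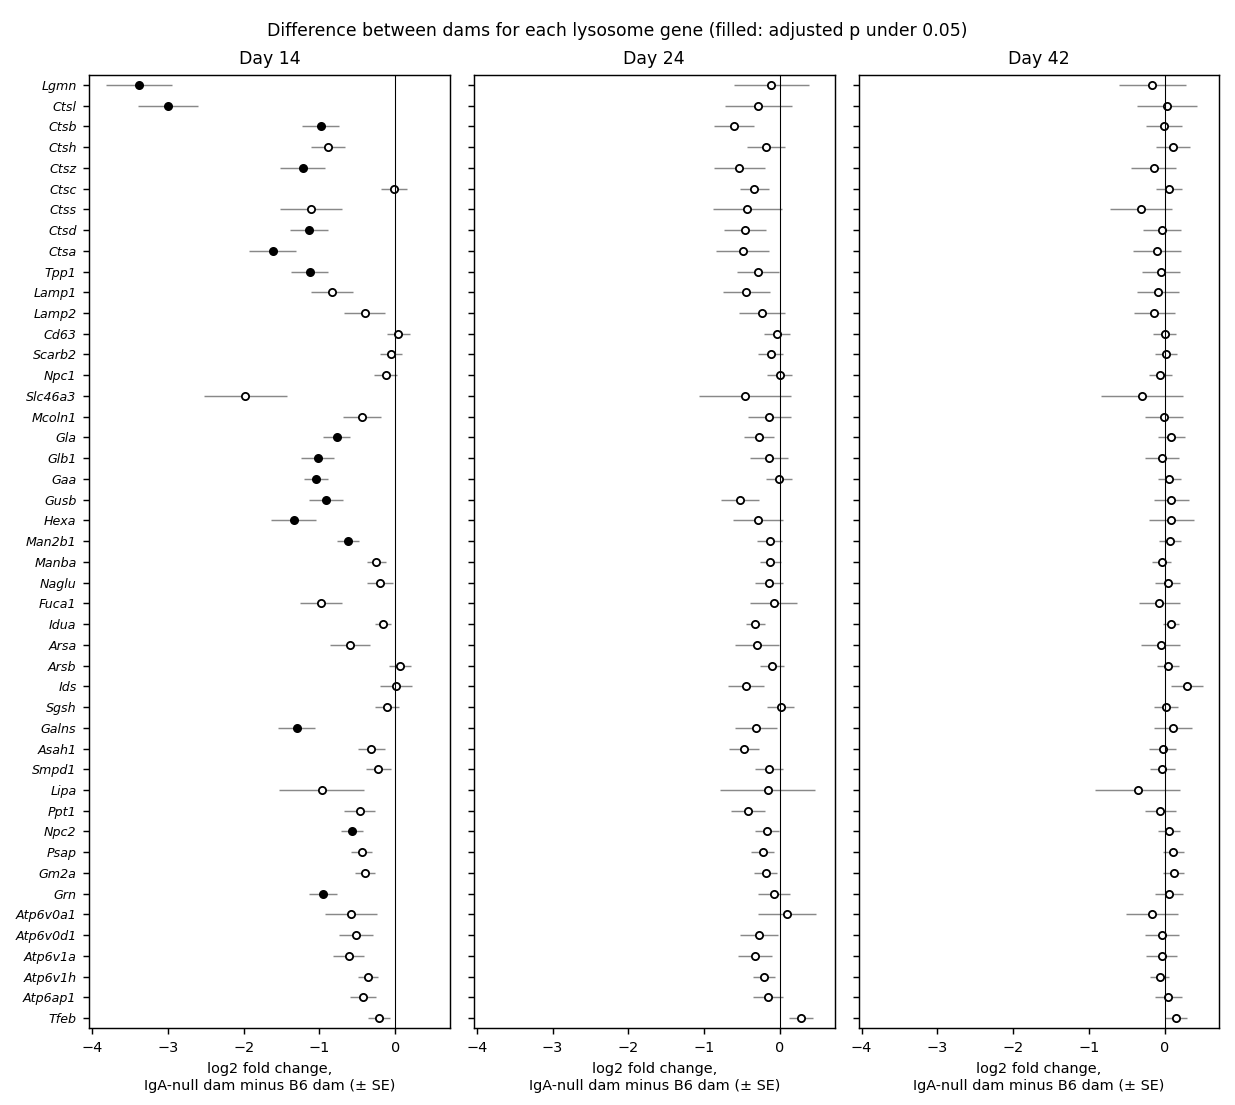
Difference between dams for each of the 46 lysosome genes at days 14, 24 and 42, as the log2 fold change of the IgA-null dam minus the B6 dam with its SE; filled points passed an adjusted p under 0.05. The 16 filled points are all at day 14 and all below 0, with Lgmn at -3.38 and Ctsl at -3.00 farthest out.

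Among the cysteine proteases, Lgmn and Ctsl differed most. Lgmn encodes legumain, which cuts after asparagine and processes other cathepsins, and it stood at 111, 192 and 35.7 scaled TPM in the B6 libraries and at 6.74, 6.65 and 10.9 in the IgA-null libraries. Its means of 113 ± 78.2 (SD, n = 3) and 8.08 ± 2.40 (SD, n = 3) were 14.0-fold apart, and the log2 fold change was -3.38 (SE 0.44, limma adjusted p = 0.0029). Ctsl, the endopeptidase cathepsin L, was at 53.9, 82.5 and 15.8 in the B6 libraries and at 3.73, 3.76 and 5.62 in the IgA-null libraries. The Ctsl means were 11.6-fold apart, with a log2 fold change of -3.00 (SE 0.40, limma adjusted p = 0.0029). For both genes the groups were far from overlapping, although B6 replicate 3 was well below the other two.

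The remaining cathepsins of this class showed smaller differences. Ctsb, an endopeptidase that also trims dipeptides, read 48.0, 58.5 and 29.5 in the B6 libraries and had a mean of 21.7 ± 3.15 (SD, n = 3), the lowest 18.2, in the IgA-null libraries (log2 fold change -0.99, SE 0.24, limma adjusted p = 0.044). Ctsz, a carboxypeptidase, read 115, 145 and 62.5 against 48.2, 37.1 and 44.1 (log2 fold change -1.22, SE 0.30, limma adjusted p = 0.044). Both genes had no overlap between the dams. Ctss, which processes antigen in antigen-presenting cells, and the aminopeptidase Ctsh gave log2 fold changes of -1.11 (SE 0.41) and -0.89 (SE 0.22) and did not pass. Ctsc, the dipeptidyl peptidase that activates granule proteases, stood at 2.53 ± 0.148 and 2.50 ± 0.327 scaled TPM with the B6 and the IgA-null dam (SD, n = 3 each; log2 fold change -0.02, SE 0.17).

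All 3 proteases of the aspartic and serine class fell. Ctsa, a carboxypeptidase that also protects β-galactosidase and neuraminidase in a complex, stood at 44.9, 56.8 and 19.0 scaled TPM in the B6 libraries and at 12.3, 9.70 and 11.9 in the IgA-null libraries (log2 fold change -1.62, SE 0.31, limma adjusted p = 0.020). The aspartic protease Ctsd read 16.4, 21.4 and 10.2 against 7.06, 5.48 and 6.90 (log2 fold change -1.14, SE 0.25, limma adjusted p = 0.032). Tpp1, which removes tripeptides, read 8.01, 12.3 and 4.04 against 3.09, 2.54 and 2.99 (log2 fold change -1.13, SE 0.25, limma adjusted p = 0.030). In each of these genes the lowest B6 library, replicate 3, was still above the highest IgA-null library.

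The glycosidases that fell act on different sugars. Gaa, the acid α-glucosidase that degrades glycogen, stood at 8.96, 10.9 and 5.93 scaled TPM in the B6 libraries and at 3.52, 3.73 and 3.33 in the IgA-null libraries (log2 fold change -1.05, SE 0.15, limma adjusted p = 0.0047). Glb1, the β-galactosidase, read 19.8, 26.9 and 10.6 against 8.30, 7.88 and 8.66 (log2 fold change -1.02, SE 0.22, limma adjusted p = 0.029). Hexa, the α subunit of β-hexosaminidase, read 41.3, 53.9 and 17.1 against 12.6, 10.1 and 16.0 (log2 fold change -1.34, SE 0.30, limma adjusted p = 0.031). The libraries of the dams did not overlap for any of these genes, and for Hexa the nearest libraries were close. Gusb, the β-glucuronidase, read 8.92, 11.5 and 5.19 against 4.40, 3.38 and 3.87, a 2.20-fold difference of the means. Gla, the α-galactosidase A, read 2.27, 2.92 and 1.56 against 1.28, 0.528 and 0.889, a 2.50-fold difference. Man2b1, an α-mannosidase, differed by 1.68-fold, with 9.61, 10.2 and 5.88 against 5.35, 5.28 and 4.66. The limma adjusted p was 0.047 for Gusb, 0.034 for Gla and 0.040 for Man2b1. Of the glycosidases that did not pass, Fuca1, the α-fucosidase, had the largest log2 fold change at -0.98 (SE 0.27), and Manba, Naglu and Idua lay between -0.25 and -0.16.

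Galns, which removes sulfate from keratan sulfate, was the only sulfatase that fell, at 10.2, 15.2 and 5.33 scaled TPM against 3.35, 3.04 and 3.39 (log2 fold change -1.30, SE 0.25, limma adjusted p = 0.019). The other 4 sulfatases ranged from -0.60 for Arsa to 0.06 for Arsb. Of the lumenal proteins, Grn, the progranulin precursor, read 22.3, 26.9 and 13.5 against 11.1, 9.17 and 9.58 (log2 fold change -0.95, SE 0.19, limma adjusted p = 0.020), and Npc2, which hands cholesterol to the membrane, read 6.79, 7.51 and 5.81 against 4.06, 4.02 and 4.46 (log2 fold change -0.57, SE 0.14, limma adjusted p = 0.048). The groups did not overlap for Galns, Grn or Npc2. The sphingolipid activators Psap and Gm2a gave -0.44 (SE 0.14) and -0.40 (SE 0.14) without passing.

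No membrane protein passed the test at day 14. Slc46a3, a lysosomal transporter, had a log2 fold change of -1.98 (SE 0.54, limma adjusted p = 0.064), from 16.1, 23.7 and 6.05 scaled TPM to 2.68, 2.24 and 3.08, and was the only member of this class without overlap. Lamp1, an abundant glycoprotein of the lysosomal coat, gave -0.84 (SE 0.28, limma adjusted p = 0.11), and its lowest B6 library and highest IgA-null library were both at 42.7 scaled TPM. Cd63, a tetraspanin of late endosomes, Scarb2, the receptor that carries glucocerebrosidase, and Npc1, the cholesterol exporter, lay between -0.13 and 0.04. The V-ATPase subunits ran from -0.62 for Atp6v1a to -0.36 for Atp6v1h, and Tfeb gave -0.22 (SE 0.14). None of these was tested against the fallen proteases, so no difference between roles is drawn.

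**Figure D2:**
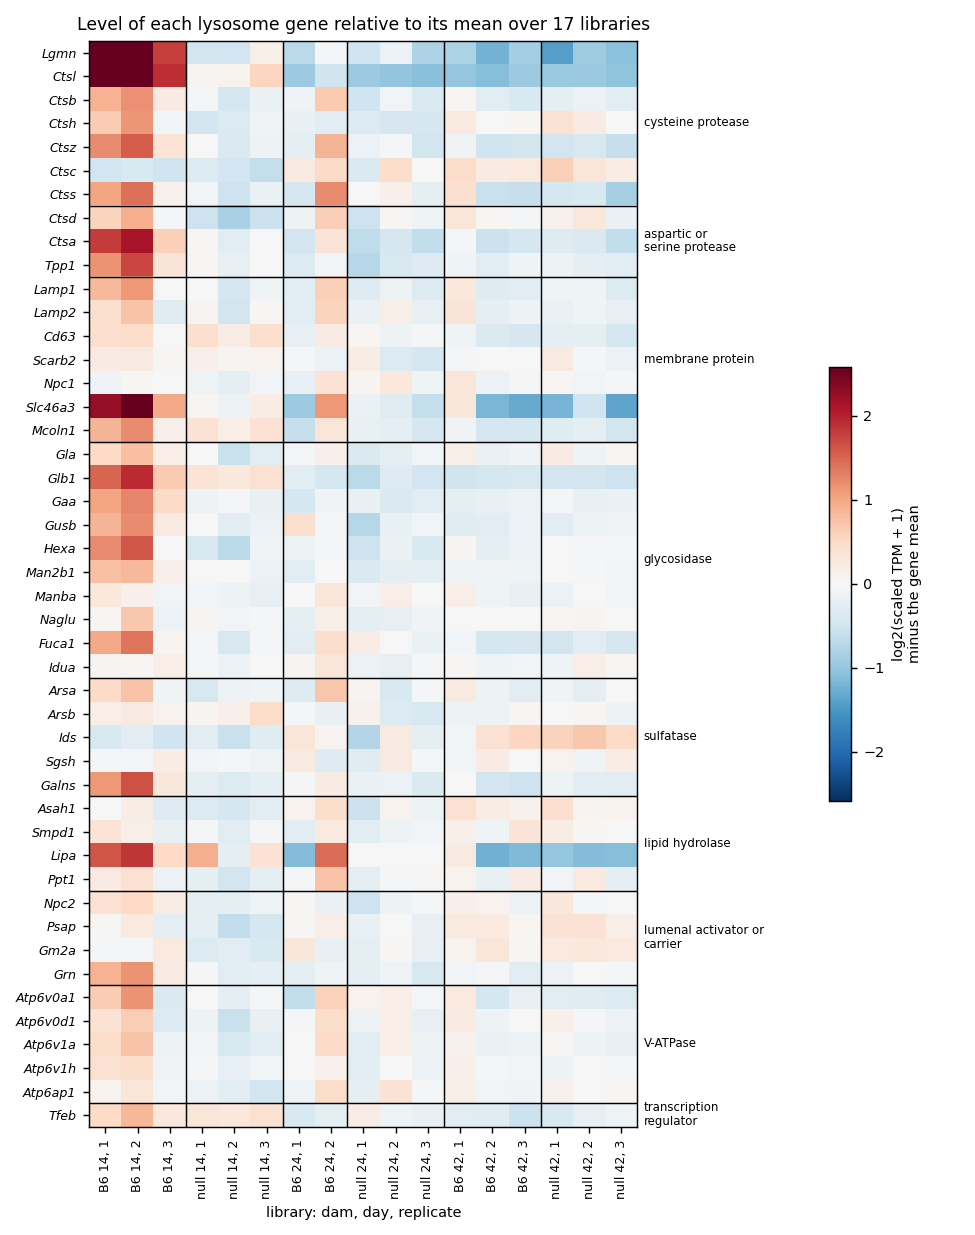
Level of each of the 46 lysosome genes in each of 17 libraries, as log2(scaled TPM + 1) minus the mean of that gene over all libraries, with rows ordered by role and columns by day and dam; null stands for the IgA-null dam. The B6 dam day 14 columns are the darkest red for most proteases and glycosidases, replicate 3 less so, and Ctsc and Ids run the other way.

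The B6 dam day 14 libraries kept the same order, replicate 2 above 1 above 3, in 40 of 46 members and in all 16 that fell, against 23.9% of all genes tested. The same order held for Fcgrt, the neonatal Fc receptor, at 362, 450 and 133 scaled TPM in replicates 1, 2 and 3, and for Dab2, an endocytic adaptor of the suckling enterocyte, at 20.4 in replicate 2 and 5.21 in replicate 3, with replicate 1 between them. Summed over 8 genes of suckling endocytosis, the level was 483, 583 and 208 in these libraries and 142 to 214 in the IgA-null libraries. Fcgrt alone gave most of that sum in each day 14 library. Of the 7 genes of this list that were tested, none passed between dams at day 14, while 1.14% of all genes fell. The markers of other epithelial cells moved with the dam at day 14. All 7 enteroendocrine markers rose with the IgA-null dam, to a summed 752 to 916 scaled TPM from 140 to 176, and 6 of 7 goblet markers rose, to 1105 to 1767 from 281 to 440, as did 1 of 6 Paneth and 2 of 5 tuft cell markers, while 1.79% of all genes tested rose. Of the macrophage markers, the defining genes Adgre1, C1qa and Cd163 never exceeded 0.0704, 0.489 and 0.0208 in any of the 17 libraries. Csf1r, another macrophage marker, read 3.45, 6.32 and 1.19 against 0.272, 0.311 and 0.431, and is given without a test because it reached the filter on low values only through the B6 dam at day 14. The part of these cell types in the fall of the lysosome genes was not tested, and fewer cells of a type and less RNA per cell cannot be told apart in these bulk samples.

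The day 14 count rested on few libraries. Leaving out B6 dam replicate 1 or 2, or IgA-null dam replicate 2 or 3, left the same 3 members, Lgmn, Ctsl and Gaa. Leaving out IgA-null dam replicate 1 left these and Gla and Grn, and leaving out B6 dam replicate 3 gave 24. The share of all genes called in each of these fits is not given, so they show only how the count depended on the libraries. In TPM as deposited, where the median gene was 0.33 higher with the IgA-null dam rather than 0.01 lower, 6 members fell, 33 had a fold change below 0 and the members' median was -0.24. Those 6 were Slc46a3 and 5 of the 16, namely Lgmn, Ctsl, Gaa, Ctsa and Galns, against 0.358% of all genes.

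Promoters were compared because TFEB and its relatives are known to switch on many lysosomal genes. Windows of 250 bases upstream of the start sites, from the RefSeq table on GRCm38.p6, were found for 40 of the 46 genes. CACGTG, the E-box that reads the same on both strands, was present in a promoter of 13 of these 40 genes (32.5%), against 9.99% of the 8977 tested genes with a promoter in the table and 6.86% of all 27025. The longer TCACGTG, which contains the E-box and was searched on both strands, was present in 12 (30%), against 5.87% and 3.58%. The mean GC content was 55.7% in the members' promoters and 59.6% in those of tested genes. Of the 14 genes that fell at day 14 and had a promoter in the table, 7 held CACGTG and 6 TCACGTG. Shown here, 5′ to 3′ on the strand of the gene, are the promoters of the 5 members that hold an E-box and that fell both between dams at day 14 and with age in pups of the B6 dam at day 24 and at day 42. Capitals mark CACGTG and, where the match is longer, TCACGTG on either strand.
Lgmn: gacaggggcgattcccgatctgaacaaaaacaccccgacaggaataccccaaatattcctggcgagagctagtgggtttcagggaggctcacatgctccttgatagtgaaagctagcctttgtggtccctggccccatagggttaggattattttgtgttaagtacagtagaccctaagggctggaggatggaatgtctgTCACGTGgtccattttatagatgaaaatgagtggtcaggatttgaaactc
Ctsl: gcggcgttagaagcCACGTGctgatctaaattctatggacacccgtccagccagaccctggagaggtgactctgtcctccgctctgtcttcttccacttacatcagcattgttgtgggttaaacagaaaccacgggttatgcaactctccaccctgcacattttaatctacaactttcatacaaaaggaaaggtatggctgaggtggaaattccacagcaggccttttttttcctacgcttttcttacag
Gaa: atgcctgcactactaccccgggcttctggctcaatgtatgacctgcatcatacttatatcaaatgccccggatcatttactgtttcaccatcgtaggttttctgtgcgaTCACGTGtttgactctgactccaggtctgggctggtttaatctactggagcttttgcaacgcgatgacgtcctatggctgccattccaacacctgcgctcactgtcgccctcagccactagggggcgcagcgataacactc
Glb1: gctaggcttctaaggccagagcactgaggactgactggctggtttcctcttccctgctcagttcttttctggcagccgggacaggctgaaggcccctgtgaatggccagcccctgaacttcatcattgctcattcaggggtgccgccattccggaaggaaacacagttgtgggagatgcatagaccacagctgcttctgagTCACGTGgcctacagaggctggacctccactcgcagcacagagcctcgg
Ctsa: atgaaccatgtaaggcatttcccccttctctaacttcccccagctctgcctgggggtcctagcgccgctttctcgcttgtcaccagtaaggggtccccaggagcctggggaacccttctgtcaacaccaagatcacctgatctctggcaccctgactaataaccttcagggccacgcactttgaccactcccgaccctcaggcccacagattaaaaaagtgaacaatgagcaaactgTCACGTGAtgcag
The Lgmn window lies at chr12:102439093-102439342 on the minus strand, with the E-box starting 49 bases before the start site. That window is inside the annotated gene, whose 5′ end is at 102439813. The other Lgmn promoter in the table, at 102439729-102439978, spans that end and held no E-box. The Ctsl window is chr13:64370521-64370770 on the minus strand, and its E-box, 236 bases before the start, lacks the leading T on either strand. This window too is inside the annotated gene, whose 5′ end is at 64370890. The Gaa window is chr11:119267713-119267962 on the plus strand, the Glb1 window chr9:114400828-114401077 on the plus strand and the Ctsa window chr2:164833523-164833772 on the plus strand, and their E-boxes begin 140, 48 and 12 bases before the start. The Gaa and Glb1 windows run past the annotated starts of their genes, at 119267887 and 114401076. The Ctsa window is inside the annotated gene, which starts at 164832873. The other Ctsa promoter, at 164832622-164832871, lies just before that start and held no motif. Ctsd and Gla also fell at day 14 and held TCACGTG, but did not pass with age in pups of the B6 dam. These matches are letters in a window, and binding was not measured.

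At day 24, limma called no member between dams, and no gene of the 15066 (0%). At an unadjusted p under 0.05 it found 3 members, against 10.1% of all genes, and limma-voom on recovered reads also called none. The fold change was below 0 for 43 of 46 members, with a median of -0.22 against -0.03 over all genes. Lgmn stood at 5.61 and 9.35 scaled TPM in the B6 libraries and at 6.47, 8.70 and 5.17 in the IgA-null libraries, and Gaa at 2.58 and 3.61 against 3.30, 2.82 and 3.00. Both genes overlapped between the dams. Without B6 dam replicate 1 or 2, or without the IgA-null library with erythroid genes, replicate 2, limma again called no member.

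At day 42 limma called no member between dams and again no gene (0%). No member had an unadjusted p under 0.05, against 1.61% of all genes, and limma-voom called none. The fold changes were below 0 for 25 of 46 members, or 16 of 46 in TPM as deposited, and the median was -0.01 against 0.00 over all genes. The range over members was -0.36 (SE 0.56) for Lipa, the acid lipase, to 0.29 (SE 0.21) for Ids, the iduronate sulfatase. Man2b1 was the only member whose libraries did not overlap, at 4.80, 4.86 and 4.82 with the B6 dam and higher, at 5.32, 5.03 and 5.02, with the other (log2 fold change 0.07, SE 0.15).

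Whether the dam difference itself changed with age was tested by the interaction of dam and age. No member passed (limma F test, 0.139% of all genes did), and 17 had an unadjusted p under 0.05, against 10.2%. The nearest were Lgmn, Ctsl and Gaa, at limma adjusted p of 0.071, 0.072 and 0.081. The difference between dams was smaller at day 42 than at day 14 by 3.22 (log2) for Lgmn, 3.04 for Ctsl and 1.11 for Gaa. Without B6 dam day 14 replicate 3, 11 members passed, among them Lgmn, Ctsl, Glb1, Hexa and Grn. How many of all genes passed in that fit is not given, so the 11 show only that the outcome depended on this library.

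In pups of the B6 dam 11 of 46 members were lower at day 24 than at day 14, against 5.91% of all genes, and Ctsc alone was higher, against 7.93%. The median fold change of the members was -0.44 against 0.01 over all genes. The fallen members were Lgmn, Ctsl, Ctsh, Ctsa, Tpp1, Glb1, Gaa, Man2b1, Galns, Grn and Tfeb. Ctsl went from the day 14 values above to 1.34 and 2.13 scaled TPM (log2 fold change -3.97, SE 0.44, limma adjusted p = 7.7e-05), far below every day 14 library. Tfeb went from 2.72, 3.73 and 2.19 to 1.01 and 1.22 (log2 fold change -0.86, SE 0.16, limma adjusted p = 0.0035), also without overlap. Over the same days the summed goblet markers went from 281 to 440 up to 919 to 1322 scaled TPM and the suckling endocytosis genes from 208 to 583 down to 74.8 to 159, whose part in these falls was not tested. Fitting these groups alone left no member past the threshold, and leaving out B6 dam day 14 replicate 3 gave 18. Leaving out B6 dam day 24 replicate 1 gave 7 that fell with the rise of Ctsc, and leaving out replicate 2 gave 13 that fell and no rise of Ctsc. In TPM as deposited, where the median gene fell by 0.29, 18 members fell, against 6.99% of all genes, and none rose, with Ctsc at 0.47 (limma adjusted p = 0.16).

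By day 42 the fall in pups of the B6 dam covered 19 members, against 6.60% of all genes, with 2 members higher, against 7.04%, and a median fold change of -0.51 against -0.01. It took in 4 of 7 cysteine proteases, 2 of 3 aspartic or serine proteases, 6 of 10 glycosidases and 3 of 7 membrane proteins, and also Galns, Lipa, Grn and Tfeb. Ctsl was at 1.24, 1.08 and 1.34 scaled TPM at day 42, 41.5-fold below its day 14 mean, and Lgmn was at 5.06, 3.60 and 4.87, 25.1-fold below. Glb1 stood at 4.11, 4.32 and 4.50 (log2 fold change -1.83, SE 0.22, limma adjusted p = 8.3e-05) and Gaa at 3.22, 3.30 and 3.42 (log2 fold change -1.12, SE 0.15, limma adjusted p = 0.00025). The day 42 libraries of these 4 genes were close together and below every day 14 library. By then the summed suckling endocytosis genes had come to 72.3 to 125 scaled TPM, the goblet markers to 1521 to 2108 and the enteroendocrine markers to 347 to 1169, and their part in the falls was not tested.

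Other roles followed with smaller or more variable falls. Slc46a3 reached 3.33, 0.577 and 0.437 scaled TPM (log2 fold change -2.75, SE 0.54, limma adjusted p = 0.0037), replicate 1 being the library with high Krt20. Lipa, the acid lipase that frees cholesterol and fatty acids, went from 11.8, 13.8 and 4.91 to 3.88, 0.741 and 0.869 (log2 fold change -2.05, SE 0.56, limma adjusted p = 0.027), again with replicate 1 highest. Mcoln1, the TRPML1 cation channel, went from 4.89, 6.48 and 2.49 to 2.02, 1.33 and 1.37, and Cd63 from 18.0, 18.6 and 13.0 to 12.0, 9.78 and 9.31. Neither gene overlapped between the ages, with limma adjusted p of 0.011 and 0.015.

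Galns ended at 4.09, 2.71 and 2.56 scaled TPM, Ctsa at 11.8, 7.96 and 8.52, and Tpp1 at 2.71, 2.35 and 2.70, all below their day 14 libraries. Tfeb ended at 1.15, 1.11 and 0.781 (log2 fold change -0.93, SE 0.14, limma adjusted p = 0.00060) and Grn at 10.8, 11.2 and 9.24 (log2 fold change -0.89, SE 0.19, limma adjusted p = 0.0053). Against this direction, Ctsc rose from 2.47, 2.70 and 2.41 to 5.78, 4.66 and 4.80 (log2 fold change 0.78, SE 0.17, limma adjusted p = 0.0081), and Ids from 1.28, 1.51 and 1.11 to 1.88, 2.94 and 3.44 (log2 fold change 0.69, SE 0.21, limma adjusted p = 0.046). In TPM as deposited neither rise passed. No V-ATPase subunit passed, the nearest being Atp6v1h at 3.22, 3.40 and 2.02 against 2.50, 2.13 and 2.08 and Atp6v1a at -0.42 (SE 0.20). With B6 dam day 24 replicate 2 and day 42 replicate 1 left out together, 21 members fell and 2 rose, with Slc46a3 at -3.29 and Lipa at -2.55. Fitting these groups alone left 9 members past the threshold, and 14 of the 21 passed with each library left out in turn, the exceptions being Ctsb, Cd63, Mcoln1, Hexa, Fuca1, Ids and Lipa. The 3 ages of the B6 dam had different dates, as had day 14 and the later days of the IgA-null dam, so age and date cannot be told apart there.

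**Figure D3:**
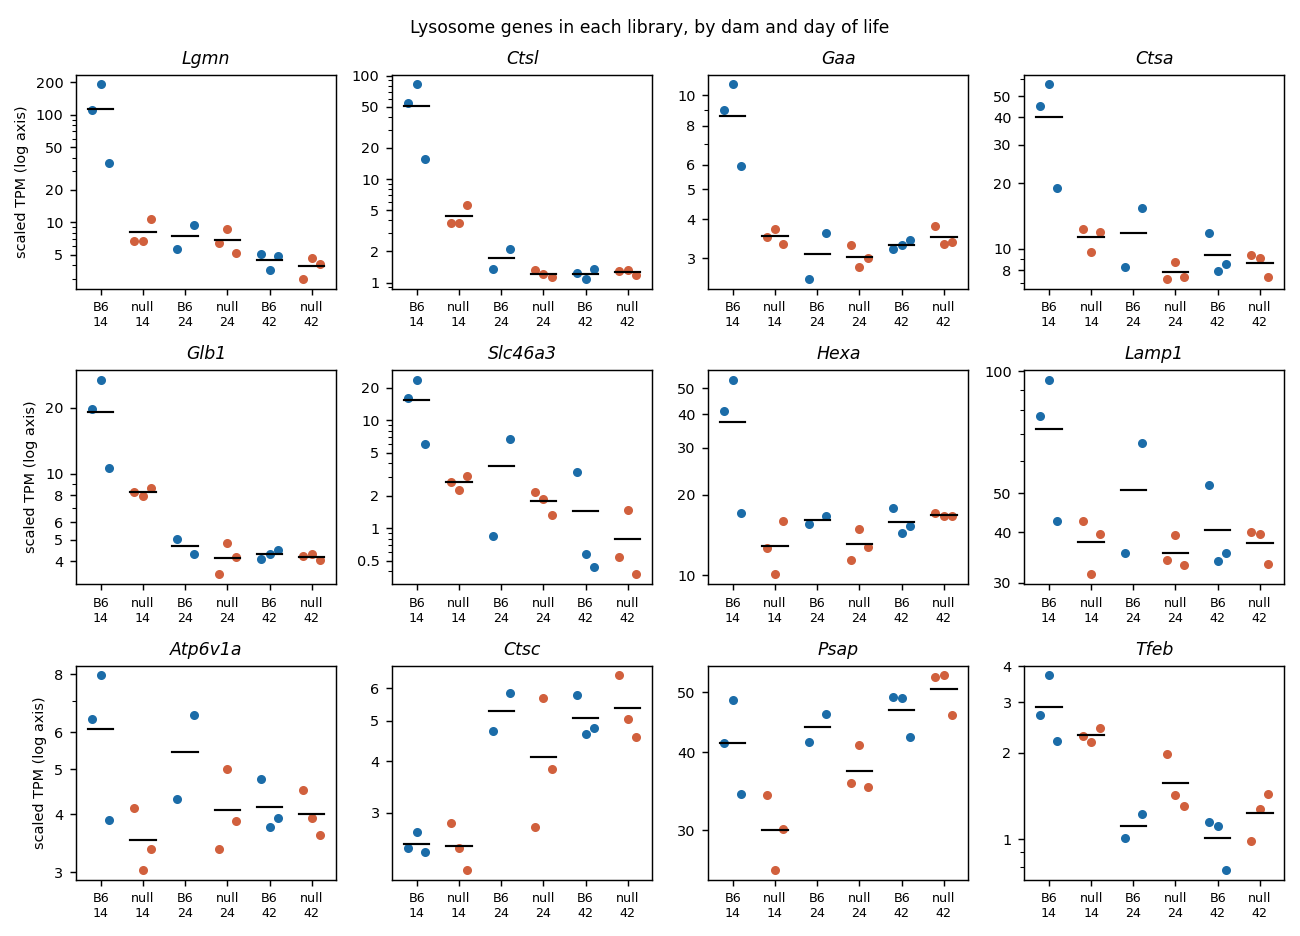
Scaled TPM on a log axis of 12 lysosome genes in every library, by dam (B6 blue, IgA-null, written null, orange) and day, with bars at the group means. Lgmn, Ctsl, Gaa and Glb1 are highest in the 3 libraries of the B6 dam at day 14, with Lgmn at 35.7 to 192, whereas Ctsc is lowest at day 14 with both dams.

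In pups of the IgA-null dam 3 members fell from day 14 to day 24, against 8.28% of all genes, none rose, and the median was -0.04 against -0.02. Glb1 went from 8.30, 7.88 and 8.66 to 3.48, 4.82 and 4.16 scaled TPM (log2 fold change -0.86, SE 0.22, limma adjusted p = 0.020) and Ctsl from 3.73, 3.76 and 5.62 to 1.32, 1.21 and 1.13 (log2 fold change -1.26, SE 0.40, limma adjusted p = 0.046), both without overlap. Arsb, the arylsulfatase B, fell from 1.14, 1.22 and 1.84 to 1.19, 0.605 and 0.522 with overlap (limma adjusted p = 0.049). None of the 3 calls held with every library left out in turn: leaving out any day 14 replicate left no member past the threshold, leaving out day 24 replicate 2 or 3 left Glb1, and leaving out day 24 replicate 1 left Arsb of the 3. In TPM as deposited, where the median gene fell by 1.02, 44 of 46 members and 82.9% of all genes fell.

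From day 14 to day 42 with the IgA-null dam, 3 members fell, against 8.09% of all genes, and 5 rose, against 8.40%, and the median was 0.04 against -0.02. The 3 that fell were Glb1, Cd63 and Tfeb, which also fell with the B6 dam. Glb1 ended at 4.22, 4.29 and 4.03 scaled TPM (log2 fold change -0.84, SE 0.22, limma adjusted p = 0.021). Cd63 went from 18.0, 15.0 and 17.5 to 10.9, 10.9 and 9.15 (limma adjusted p = 0.011), and Tfeb from 2.28, 2.18 and 2.44 to 0.985, 1.28 and 1.44 (limma adjusted p = 0.017). No day 42 library of these genes reached a day 14 library. The summed goblet markers ran over 1105 to 1767 scaled TPM at day 14 and 1470 to 1724 at day 42, and the suckling endocytosis genes over 142 to 214 and 71.7 to 83.5; their part was not tested.

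The 5 that rose were Ctsc and Ids, as with the B6 dam, and Psap, Gm2a and Asah1, of which the first 2 serve sphingolipid breakdown as activators and Asah1 as the acid ceramidase. Psap went from 34.2, 25.9 and 30.2 to 52.9, 53.2 and 45.9 scaled TPM (log2 fold change 0.74, SE 0.14, limma adjusted p = 0.0030). Gm2a went from 0.507, 0.585 and 0.469 to 1.28, 1.32 and 1.29 (log2 fold change 0.60, SE 0.14, limma adjusted p = 0.0098). Asah1 went from 6.34, 5.88 and 6.63 to 11.6, 8.88 and 8.96 (log2 fold change 0.56, SE 0.18, limma adjusted p = 0.044). None of the 3 overlapped between ages. In TPM as deposited, where the median gene fell by 0.48, none of the 5 rises passed and 15 members fell, against 38.9% of all genes. For Asah1 that fold change was 0.00. With a library left out, Glb1 and Asah1 lost the call in all 6 such fits and Tfeb without day 14 replicate 3 (limma adjusted p = 0.062) or day 42 replicate 1 (limma adjusted p = 0.078), whereas Ctsc, Ids, Cd63, Psap and Gm2a kept it in each.

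**Figure D4:**
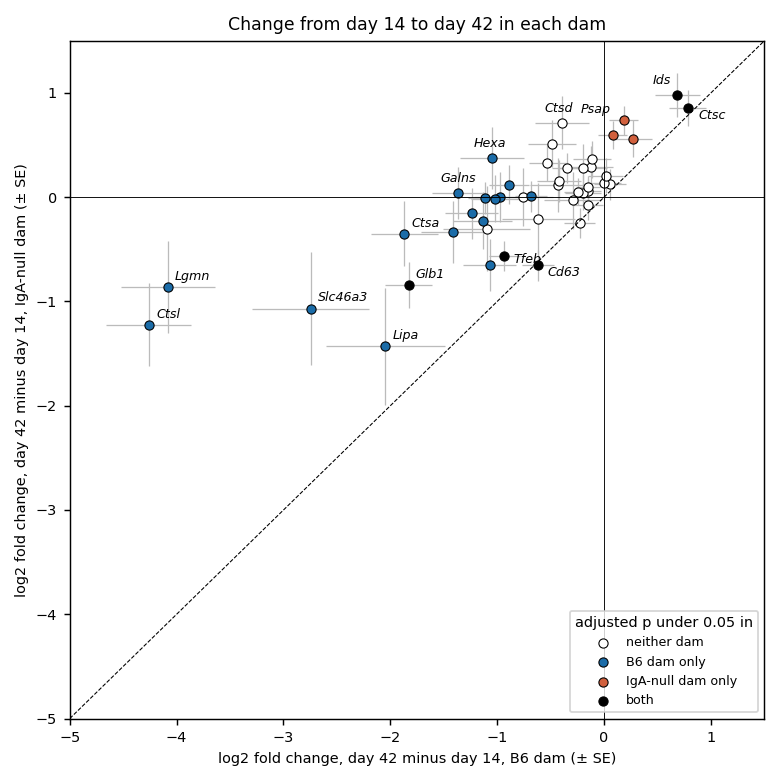
Log2 fold change from day 14 to day 42 of each of the 46 lysosome genes with the B6 dam (horizontal) and the IgA-null dam (vertical), each with its SE; colours show where the adjusted p was under 0.05 and the dashed line marks equal change. Lgmn at -4.08 and -0.87 and Ctsl at -4.26 and -1.22 lie farthest from that line.

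Set side by side, the change from day 14 to day 42 was -4.08 (SE 0.44) for Lgmn in pups of the B6 dam against -0.87 (SE 0.44) in pups of the IgA-null dam, and -1.12 (SE 0.15) and -0.01 (SE 0.15) for Gaa. The day 14 dam comparison and both age comparisons from day 14 share libraries, so these values are not separate observations of the same difference. From day 24 to day 42, limma called no member in either dam, against 0.0265% of all genes for the B6 dam, or 2.58% for the IgA-null dam. At an unadjusted p under 0.05 there were 0 members with the B6 dam, against 7.03% of all genes, and 6 with the IgA-null dam, against 23%. Limma-voom called none for the B6 dam, and 1 for the IgA-null dam, as did limma without the day 24 library with erythroid genes. In TPM as deposited, where the median gene rose by 0.53 with the IgA-null dam and the median member by 0.65, 29 members rose there. The share of all genes that rose in that fit is not given, so this count is no result about the members.

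In all, 17 of the 46 members passed in none of these comparisons. They were the 5 V-ATPase subunits, the coat proteins Lamp1 and Lamp2, Scarb2 and Npc1, the protease Ctss, the glycosidases Manba, Naglu and Idua, the sulfatases Arsa and Sgsh, and the lipid hydrolases Smpd1, the acid sphingomyelinase, and Ppt1, which removes palmitate from proteins. Their levels ran from Idua, at 0.871 ± 0.102 scaled TPM (SD, n = 3) with the B6 dam at day 14, to Lamp1 at 71.8 ± 26.7 (SD, n = 3) in the same group.

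Other genes of the organelle, in 5 lists of further hydrolases, membrane proteins, V-ATPase subunits, sorting proteins and regulators, were 85 tested of 103 listed. Among those tested, Cln3 reached the filter on low values only through the B6 dam at day 14. It remains in the counts and medians below, where it is no support for a difference from that group. At day 14, 6 of the 85 were lower with the IgA-null dam, against 1.14% of all genes, and none higher, with a median of -0.34 against -0.01 over all genes. Slc17a5, which exports sialic acid, read 26.5, 43.1 and 8.79 scaled TPM in the B6 libraries and 4.89, 5.72 and 6.45 in the IgA-null libraries (log2 fold change -1.78, SE 0.36, limma adjusted p = 0.023). Lamtor1, which anchors the Ragulator complex to the lysosome, read 6.54, 6.52 and 6.20 against 3.94, 4.12 and 3.96 (log2 fold change -0.57, SE 0.09, limma adjusted p = 0.0075), and its B6 libraries lay close together, unlike those of Slc17a5.

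From day 14 to day 42 with the B6 dam, 16 of the 85 fell, against 6.60% of all genes, and 2 rose, against 7.04%, and the median was -0.16 against -0.01. Tfec, a relative of Tfeb, went from 3.44, 4.82 and 1.58 scaled TPM to 0 in replicates 1 and 3 and 0.00874 in replicate 2 (log2 fold change -2.02, SE 0.21, limma adjusted p = 2.4e-05). Mfsd12, a cysteine importer of lysosomes and melanosomes, went from 3.56, 3.66 and 1.99 to 0.853, 0.665 and 0.563 (log2 fold change -1.24, SE 0.16, limma adjusted p = 0.00012). For both genes every day 42 library was below every day 14 library.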

How the data were processed

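RNA of 17 small-intestinal epithelial libraries was amplified by SMART-seq v4 and made into Nextera XT libraries, per the labels' protocols. The authors deposited TPM per gene symbol. Per the submitters' processing notes, Bowtie2, Subread, DESeq2 and mm10 were used; versions and the step from counts to TPM are not given in the sources used here. Gm23935, a short gene model, took 40.2% to 61.9% of a library's TPM, and mitochondrial genes 13.7% to 34.6%. The deposited TPM were divided by median-of-ratios size factors (0.477 to 1.83). Among day 14 libraries, all other genes held 18.8% to 19.7% of TPM for B6 and 24.7% to 30.9% for IgA-null. Gm23935 overlapped there, at 45.7% to 58.5% against 40.2% to 61.6%, as did mitochondrial genes, at 22.0% to 34.6% against 13.7% to 28.9%. Genes under a TPM of 1 in all but a single library were left out, so that 2 libraries had to reach it. Then log2(scaled TPM + 1) was fitted with limma 3.58.1 (R 4.3.3, trend, means of 6 groups, no covariate). P-values were Benjamini-Hochberg adjusted over all genes. The procedure was also run on simulated data with the same fixed spread in every library. That run does not cover the uneven spread of the B6 dam day 14 libraries. Exon lengths of GENCODE M21 turned 93.6% of values above 0 into whole reads (within 0.01 reads or a share of 0.0001), against 1.99% with shuffled lengths among values under 100 reads, which gave the depths; counting error alone is covered, since reads carried no molecular identifiers. Members and gene lists were chosen with earlier results of these data known. Every member could be named; library values went to members that fell at day 14 and to the 3 members of each role with the smallest p from day 14 to day 42 with the B6 dam, and to the 3 genes of the other lysosome lists with the smallest p in each of those comparisons, except for a gene not reported here. Alternatives were TPM as deposited, quantile normalisation, other pseudocounts (0.1 and 5) and filters, the compared groups alone, a replicate block and each library left out; limma-voom on recovered reads and leaving out B6 dam day 24 replicate 2 and day 42 replicate 1 together were added after seeing the data.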

Additional observations from a re-analysis of the deposited data

How the results depend on the processing

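No member reversed its direction under any alternative in a comparison where it was called. Over the 71 results checked gene by gene, those of called members and of Lgmn and Ctsl in each comparison, 875 values under an alternative stayed on the same side of the threshold, 228 lost the call and 9 gained it; other members that gained a call enter only the counts that follow. Between dams at day 14, where 16 members fell, 6 did in TPM as deposited, 6 with no filter on low values, 4 when these groups were fitted alone, and 3 to 24 with a library left out. From day 14 to day 24 the count went from 12 to 19 with quantile normalisation and 0 for the groups alone with the B6 dam (8 to 18 with a library left out). With the IgA-null dam it went from 3 to 44 in TPM as deposited, 0 with a pseudocount of 5, 1 with no filter, 1 with limma-voom and 5 without B6 dam day 24 replicate 2 and day 42 replicate 1 together (0 to 4 with a library left out). From day 24 to day 42 with the IgA-null dam, the count of 0 became 29 in TPM as deposited, 2 with quantile normalisation, 1 with a pseudocount of 5, 2 for the groups alone, 1 with limma-voom, 3 without those 2 libraries, and 0 to 1 with a library left out. From day 14 to day 42 it became 9 for the groups alone with the B6 dam (14 to 27 with a library left out), and with the IgA-null dam 15 in TPM as deposited and 16 for the groups alone (5 to 6 with a library left out). The interaction called 2 members in TPM as deposited, 2 without those 2 libraries and 0 to 11 with a library left out. The scaling shift of the median gene and the smaller number of libraries are part of the construction of these alternatives. Beyond that the cause was not tested. Unless a share of all genes is printed with it, a count under an alternative, here or above, describes only how the calls depend on the processing. With a library left out of the B6 dam at day 24, the remaining one is assumed to vary like the other groups.

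The samples share only a number: deviations of same-numbered libraries correlated with a median of -0.02 over 40 pairs, of which 31 were at or under 0.1, against 0.00 over 80 pairs of different number. With the replicate block, 9 members fell at day 14 between dams and 1 from day 14 to day 24 with the IgA-null dam. The other comparisons stayed within 1.5 times.

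Low members are limited by depth: those with 13 reads in a library cannot show small differences, and groups of 2 or 3 libraries leave wide errors where B6 dam day 14 replicate 3 departs from the others.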
